A study of Homo sapiens with 16 samples.

Results

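The Hedgehog pathway genes described here are SHH, PTCH1, SMO, GLI1, GLI2, GLI3, HHIP, BOC and CDON, 9 named genes out of 57736 in a table of RNA-seq counts. They were read in all 16 libraries, by stage and by treatment, and all 9 were among the 24249 genes that passed the filter on low counts. The libraries come from H9, an established human embryonic stem cell line, differentiated on Matrigel towards cortical neurons by dual SMAD inhibition, in which LDN193189 and SB431542 block BMP and activin receptors. Libraries were made at 4 stages, named D0, D12, D30 and D70 for the day of differentiation. At each stage 2 biological replicates had been kept in 40 µM Thiamet-G (TMG), which inhibits O-GlcNAcase (OGA) and so raises protein O-GlcNAc, and 2 had been kept in DMSO, the solvent, as control. TMG was present in the undifferentiated D0 cells as well. The protocol as described names no Hedgehog ligand or agonist, and all libraries are of 1 line and of whole cultures, so more cells of a type and more RNA per cell cannot be told apart. The treatment characteristic of 8 libraries, replicate 2 of control and replicate 1 of TMG at each stage, contradicts the title. Titles were followed, and the columns of the count table are tagged as in the titles. Every TMG difference below rests on them, and leaving those libraries out would leave 1 per group.

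Hedgehog signalling patterns the developing neural tube from its ventral side. The ligand Sonic hedgehog, from SHH, binds the receptor Patched, from PTCH1, and the co-receptors BOC and CDON help it bind. Patched without ligand holds back SMO, a membrane protein that works at the primary cilium. When SMO is released, GLI2 and GLI3 are no longer processed into repressors and the GLI factors turn on target genes. GLI1, PTCH1 and HHIP, a membrane protein that binds and sequesters the ligand, are the best known of these targets, and GLI3 acts mainly as a repressor in the dorsal forebrain.

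Library totals ran from 10334908 to 19836878 counts. Levels are given as CPM, the count scaled to a common library size, with edgeR's TMM factors. Levels of different genes were compared only after division by the length of the canonical transcript (CPM per kb). The defining markers followed the stages: POU5F1, a pluripotency factor, was between 824 and 893 CPM in the 4 D0 libraries and at most 9.13 CPM later, and PAX6, a neural progenitor factor, rose from at most 14.6 CPM on D0 to between 303.7 and 585 CPM on D12. Later libraries of 1 group were unlike each other. A list of 8 mesenchyme genes (COL1A1, COL1A2, COL3A1, DCN, LUM, PDGFRA, PDGFRB and TWIST1) summed to 29820 CPM in TMG replicate 2 of D30, to 45370 CPM in control replicate 2 of D70 and to 59150 CPM in TMG replicate 2 of D70. All 8 genes were at 1 CPM or more in these 3 libraries. In the other 5 libraries of D30 and D70 the sum lay between 4064 and 7724 CPM, and on D0 and D12 it was at most 1926 CPM. TTR, a gene of the choroid plexus, reached 9812 CPM in control replicate 1 and 2913 CPM in TMG replicate 1 of D70, and PAX6 was at 2.5 CPM in TMG replicate 2 of D70. These libraries are named below where a member moves with them.

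On GRCh37 the ligand gene SHH (ENSG00000164690) lies at chr7:155592674-155605157 on the minus strand. The receptor and co-receptor genes are PTCH1 (ENSG00000185920, chr9:98205262-98279339, minus), BOC (ENSG00000144857, chr3:112929850-113006306, plus) and CDON (ENSG00000064309, chr11:125825691-125933230, minus), and HHIP (ENSG00000164161) is at chr4:145567308-145666423, plus. SMO (ENSG00000128602) is at chr7:128828474-128853386, plus. The GLI genes are GLI1 (ENSG00000111087, chr12:57853568-57866051, plus), GLI2 (ENSG00000074047, chr2:121493199-121750229, plus) and GLI3 (ENSG00000106571, chr7:42000547-42303699, minus). Counts are per gene, over all annotated exons.

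The ligand was scarcely detected. SHH had 3 and 5 counts in the control libraries of D0 and 5 and 3 in those of D12. It had 17 and 20 on D30, then 22 and 0 on D70. The TMG libraries held 4 and 8, 6 and 1, 16 and 7, and 7 and 4 counts at the same stages. The highest value was 1.6 CPM, in control replicate 1 of D30, and the 0 counts of control replicate 2 of D70 allow up to 0.241 CPM (3 counts, counting error only). In both arms the mean was highest on D30, at 1.3 CPM in control and 1.11 CPM in TMG, and lowest on D12, at 0.205 and 0.187 CPM. Both control libraries of D30 lay above both of D12, with a log2 fold change of 2.59 ± 1.14 (SE) and an adjusted p of 0.227 by edgeR's quasi-likelihood test, so the difference did not pass the false discovery rate of 5% used throughout.

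The other ligands were scarcely detected too. IHH, Indian hedgehog, reached at most 0.964 CPM in any library. DHH, Desert hedgehog, had 1.13 and 0.821 CPM in the control libraries of D12 against 0.0618 and 0.21 CPM on D0, and rose with a log2 fold change of 2.80 ± 0.73 (adjusted p = 0.0254 by edgeR). Genes that modify or release the ligands rose over the same days. Of a list of 7 genes (IHH, DHH, HHAT, DISP1, SCUBE1, SCUBE2 and SCUBE3), 5 rose from D0 to D12 in control cells and 0 fell, where 6.97% of all genes rose. SCUBE2, a secreted protein that helps release the lipid-bearing ligand, rose from a mean of 1.65 to 21.3 CPM (adjusted p = 0.015). SCUBE3 rose from 30.6 to 270.6 CPM (adjusted p = 0.00258), and HHAT, the acyltransferase that attaches palmitate to the ligand, from 3.20 to 23.6 CPM (adjusted p = 0.00374).

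Of the 9 genes, both co-receptors and GLI3 rose from D0 to D12. BOC had 21.5 and 37.1 CPM in the control libraries of D0 and 392.7 and 503.0 CPM on D12. It then had 147.7 and 179.8 CPM on D30, and 107.4 and 250.5 CPM on D70. The lowest library of any later stage lay above both D0 libraries. From D0 to D12 BOC rose 15.3-fold in control cells (log2 fold change of 3.93 ± 0.59 with adjusted p = 0.00259) and 10.7-fold in TMG cells (3.41 ± 0.57, adjusted p = 0.0042), and it was still higher on D70 than on D0 in control cells (2.61 ± 0.55, adjusted p = 0.00617).

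CDON had 55.5 and 73.0 CPM on D0 in control, 552.7 and 758.1 CPM on D12, 230.5 and 300.9 CPM on D30, and 115.6 and 283.3 CPM on D70. Its rise to D12 was 10.2-fold in control (log2 fold change 3.35 ± 0.39, adjusted p = 0.000863) and 8.07-fold in TMG cells (3.01 ± 0.39, adjusted p = 0.00124). It was then lower on D70 than on D12 in control cells (log2 fold change -1.72 ± 0.37, adjusted p = 0.0165). The fall to D70 was past the threshold with control replicate 2 of D70 left out, but not without either library of D12 or without control replicate 1 of D70 (adjusted p = 0.0592, 0.097 and 0.051, with log2 fold changes of -1.93, -1.47 and -1.22). Per kb, BOC and CDON were with GLI3 the highest members on D12: the control libraries held 85.9 and 110.1 CPM per kb of BOC, 86.3 and 81.9 of GLI3 and 66.8 and 91.7 of CDON, ranges that overlap.

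**Figure D1:**
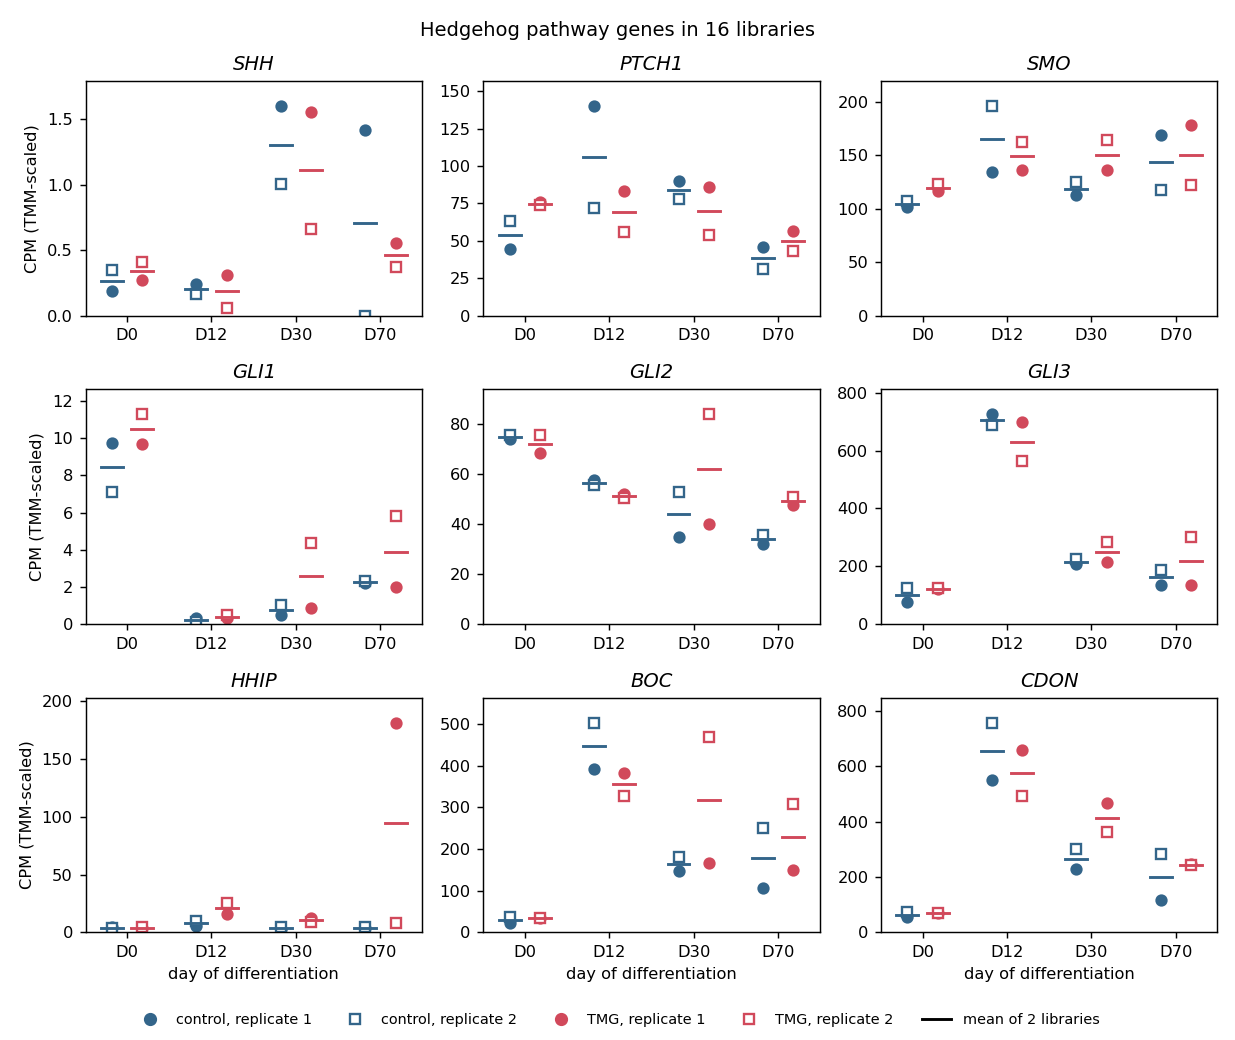
Level of each of the 9 genes in CPM (vertical axes start at 0 and differ between panels) in each of the 16 libraries, by day of differentiation, with control in blue, TMG in red and a bar at the mean of 2 libraries. The means of BOC, CDON and GLI3 are highest on D12 in both arms, although 1 TMG library of D30 holds the highest BOC value of that arm (468.1 CPM), GLI1 is highest on D0, SHH never exceeds 1.6 CPM, and 1 TMG library of D70 holds 181.5 CPM of HHIP.

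The remaining receptors did not wholly follow BOC and CDON. GAS1, a lipid-anchored co-receptor, rose from 15.0 and 50.9 CPM on D0 to 101.0 and 187.6 CPM on D12 in control cells (log2 fold change 2.13 ± 0.60, adjusted p = 0.0353). GPC3, a glypican that competes for the ligand, rose from a mean of 123.6 to 923.5 CPM (2.90 ± 0.86, adjusted p = 0.0431). LRP2, the endocytic receptor megalin, which takes up the ligand in the ventral forebrain, had 18.1 and 111.4 CPM on D0 and 681.9 and 775.2 CPM on D12. GAS1 and GPC3 were the 2 of 6 genes of a receptor list that passed the test in this comparison, where 6.97% of all genes rose, and 0 fell.

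PTCH1 had 44.7 and 63.4 CPM in the control libraries of D0, 139.9 and 71.9 CPM on D12, 90.1 and 78.1 CPM on D30, and 45.9 and 31.1 CPM on D70. The libraries of D12 lay above those of D0, but the rise did not pass (log2 fold change 0.97 ± 0.36, adjusted p = 0.088 by edgeR). Its fall from D12 to D70 in control cells passed (log2 fold change -1.46 ± 0.36, adjusted p = 0.029). That call was lost without control replicate 1 of D12 (log2 fold change -0.91, adjusted p = 0.225), which held the highest value, without control replicate 1 of D70 (-1.77, adjusted p = 0.0549) and without control replicate 2 of D70 (-1.22, adjusted p = 0.107). In TMG cells the 4 stage means lay between 50.04 and 74.9 CPM and no pair of stages passed.

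In the RefSeq table of promoters (build GRCh38.p14), 7 of the 9 members have an entry, with 15 entries in all. The letters GACCACCCA, a sequence bound by GLI factors, were searched on both strands of each window of 300 bases, from 250 bases before to 50 after a gene's start. They were found in 1 of the 15 windows, at 1 of the 5 starts listed for PTCH1, and in 83 of all 35116 windows (0.236%). The match begins at position -172 from that start and is in the reverse orientation, TGGGTGGTC. Both sequences below are the 250 bases before a start, 5′ to 3′ on the gene's strand, with the match in capitals. PTCH1 is shown for the match. HHIP has none in its window and is shown for the largest fitted difference between TMG and control, that on D70. A match describes letters and does not show binding. The coordinates are on the minus strand at chr9:95509267-95509516 for PTCH1 and on the plus strand at chr4:144645906-144646155 for HHIP.
PTCH1: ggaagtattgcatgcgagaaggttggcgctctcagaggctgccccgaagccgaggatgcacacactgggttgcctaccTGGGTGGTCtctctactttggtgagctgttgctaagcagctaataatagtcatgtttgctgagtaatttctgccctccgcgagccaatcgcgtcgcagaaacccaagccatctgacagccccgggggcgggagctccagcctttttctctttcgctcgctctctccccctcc
HHIP: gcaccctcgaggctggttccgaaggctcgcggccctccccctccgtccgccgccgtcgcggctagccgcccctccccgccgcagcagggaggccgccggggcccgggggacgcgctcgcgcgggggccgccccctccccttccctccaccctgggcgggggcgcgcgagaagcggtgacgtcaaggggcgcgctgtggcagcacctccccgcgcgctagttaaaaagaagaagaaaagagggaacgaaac

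SMO was the steadiest member. Its 16 values ran from 101.7 CPM, in control replicate 1 of D0, to 195.8 CPM, in control replicate 2 of D12, and no pair of stages passed in either arm. Both control libraries of D12 lay above both of D0 (log2 fold change 0.66 ± 0.25, adjusted p = 0.0939 by edgeR). Per kb it was the highest member on D0, with 25.6 and 26.9 CPM per kb in control cells against 9.0 and 14.7 for GLI3, and these ranges do not overlap.

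The GLI genes parted at D12. GLI1 had 9.76 and 7.13 CPM in the control libraries of D0 and 0.344 and 0.11 CPM, 7 and 2 counts, on D12. It had 0.47 and 1.05 CPM on D30 and 2.19 and 2.33 CPM on D70. Its fall from D0 to D12 was 35.5-fold in control (log2 fold change -5.15 ± 0.87, adjusted p = 0.00426) and 25.6-fold in TMG cells (-4.68 ± 0.84, adjusted p = 0.00525). All 4 D12 libraries lay below all 4 D0 libraries. It rose again from D12 to D70 in control cells (3.25 ± 0.84, adjusted p = 0.0333), a call that was lost without any one of those 4 libraries (adjusted p between 0.0686 and 0.182, log2 fold changes between 2.69 and 4.26).

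GLI3 went the other way. It had 75.6 and 123.8 CPM on D0 in control, 724.8 and 687.6 CPM on D12, 207.5 and 224.6 CPM on D30, and 135.6 and 188.6 CPM on D70. From D0 to D12 it rose 7.08-fold in control (log2 fold change 2.83 ± 0.37, adjusted p = 0.00148) and 5.16-fold in TMG cells (2.37 ± 0.36, adjusted p = 0.00281). From D12 to D70 it fell in both arms, with log2 fold changes of -2.12 ± 0.36 in control (adjusted p = 0.00649) and -1.53 ± 0.35 in TMG cells (adjusted p = 0.035). Without control replicate 1 of D12 the first of these was -2.09 with an adjusted p of 0.0515. The fall in TMG cells was lost without TMG replicate 1 of D12, TMG replicate 2 of D12 or TMG replicate 1 of D70 (log2 fold changes of -1.37, -1.66 and -1.08, adjusted p = 0.172, 0.134 and 0.0596), and calls over all genes went from 1249 to 217, 79 and 2918.

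GLI2 declined more gently. Control libraries held 74.0 and 75.6 CPM on D0, 57.4 and 55.6 CPM on D12, 34.96 and 52.6 CPM on D30, and 32.1 and 35.5 CPM on D70. It was lower on D70 than on D0 (log2 fold change -1.15 ± 0.29, adjusted p = 0.0147), which was lost without either D0 library or without control replicate 1 of D70 (adjusted p between 0.0626 and 0.0775), with log2 fold changes between -1.21 and -1.08 over the 4 libraries left out in turn. Per kb, GLI3 made up between 41.2% and 54.5% of the summed GLI1, GLI2 and GLI3 level in the 4 D0 libraries and between 90.4% and 91.9% in the 4 D12 libraries. GLI1 made up between 6.63% and 11.3% on D0 and at most 0.168% on D12. By D70 the share of GLI3 lay between 69.5% and 80.7%.

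**Figure D2:**
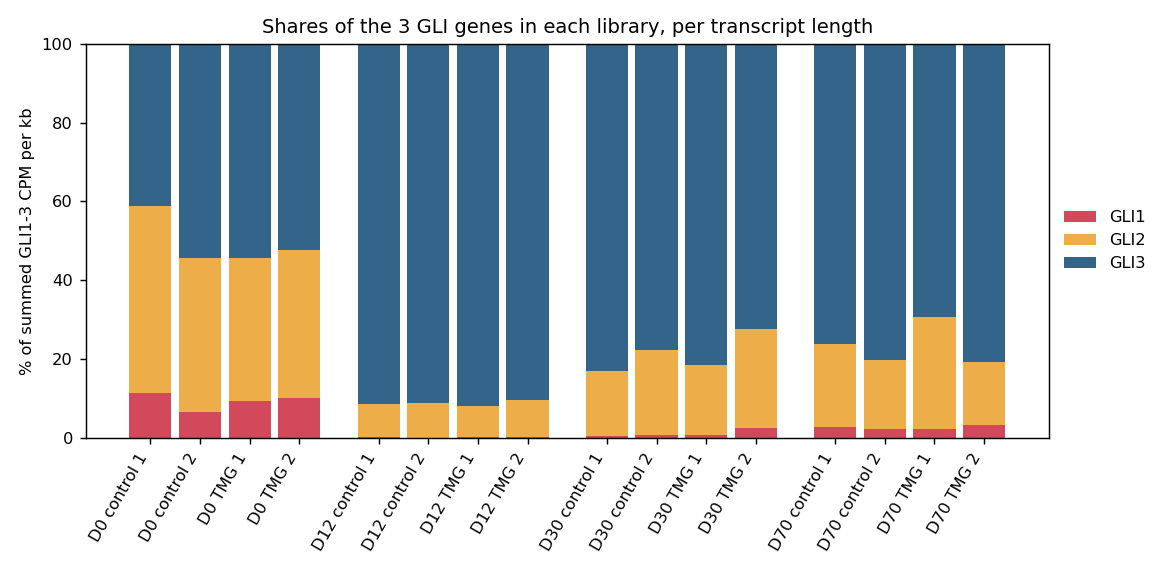
Share of GLI1, GLI2 and GLI3 in the sum of the 3 genes' CPM per kb (percent, stacked bars from 0 to 100), 1 bar for each of the 16 libraries. GLI3 takes over 90% in all 4 D12 libraries, and GLI1 is visible as a band mainly on D0.

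HHIP had 4.39 and 3.99 CPM in the control libraries of D0, 5.16 and 10.3 CPM on D12, 2.91 and 4.67 CPM on D30, and 3.41 and 4.99 CPM on D70. No pair of stages passed in control cells. The highest of these 8 values was 10.3 CPM.

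Over the 6 pairs of stages, 6 of the 9 members passed in at least 1 pair in control cells (BOC, CDON, GLI1, GLI2, GLI3 and PTCH1), where 44.8% of all genes tested did. In TMG cells 5 of 9 did (BOC, CDON, GLI1, GLI3 and HHIP), against 38.8% of all genes. From D0 to D12 alone, 4 of 9 members passed in control cells, 3 higher (6.97% of all genes) and 1 lower (9.71%), against 16.7% of all genes in either direction, with a median log2 fold change of 0.88 over the members and 0.003 over all genes. All 4 of these calls remained when any one of the 4 libraries was left out. From D0 to D30, 4 of 9 passed (BOC, CDON and GLI3 higher, GLI1 lower) against 30.6%, and from D0 to D70, 3 of 9 (BOC and CDON higher, GLI2 lower) against 29.8%. From D12 to D30 only GLI3 passed by edgeR, lower (against 3.6% of all genes), and from D12 to D70, 4 of 9 did (GLI1 higher, PTCH1, GLI3 and CDON lower) against 11.1%. From D30 to D70, 0 members passed by edgeR, against 0.384% of all genes. PTCH1 was the 1 member at an unadjusted p under 0.05 there (18.4% of all genes) and the 1 member that DESeq2 called (log2 fold change -1.14, adjusted p = 0.0461), against 8.13% of the genes it tested. In TMG cells the members that passed were BOC, CDON, GLI1 and GLI3 from D0 to D12 (against 16.4% of all genes), BOC, CDON and GLI3 from D0 to D30 (27.7%), BOC, CDON and HHIP from D0 to D70 (29%), and GLI1 and GLI3 from D12 to D70 (5.15%). By edgeR 0 members passed from D12 to D30 in TMG cells (0.511% of all genes), where GLI1 and GLI3 had an unadjusted p under 0.05 (15% of all genes) and were called by DESeq2 (5.21%), and 0 passed from D30 to D70 (0.00825%), where the same was true of HHIP (11% and 1.75%). Further members were called by DESeq2 but not by edgeR. In control cells these were GLI1 from D0 to D70 (-1.88, adjusted p = 0.0423, against 31.3% of the genes DESeq2 tested) and CDON from D12 to D30 (-1.27, adjusted p = 0.012, against 12.2%). In TMG cells they were HHIP from D0 to D12 (2.42, adjusted p = 0.0334, against 22.2%), GLI1 from D0 to D30 (-1.97, adjusted p = 0.0335, against 30.1%) and CDON from D12 to D70 (-1.19, adjusted p = 0.0194, against 13.4%). These comparisons share libraries and are not independent of each other.

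Several of these calls were lost with 1 library left out, while the fold changes mostly kept their size. Left without control replicate 1 of D0, the D30 rises of GLI3 and BOC were 0.86 and 2.19 (adjusted p = 0.201 and 0.0697), and the D70 rises of BOC and CDON were 2.3 and 1.48 (0.0643 and 0.0677). Over all genes, calls from D0 to D30 went from 7429 to 4007 at the same step. GLI3 on D30 was also lost without either D30 control library (1.18 and 1.05, adjusted p = 0.0949 and 0.118), and GLI1 on D30 without control replicate 1 of D30 (-2.99, adjusted p = 0.0779). The control fall of GLI3 from D12 to D30 was lost without any one of the 4 libraries, with log2 fold changes between -1.77 and -1.65 (adjusted p between 0.122 and 0.21), while calls over all genes went from 874 to 8, 0 and 0 in 3 of these fits and fell in the other one too.

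In TMG cells, the D12 fall of GLI1 was lost without TMG replicate 1 of D12 (-4.38, adjusted p = 0.0652) and the D12 rise of BOC without TMG replicate 1 of D0 (3.41, adjusted p = 0.0551). The D30 rise of GLI3 was lost without any one of its 4 libraries, with log2 fold changes between 0.81 and 1.21 (adjusted p between 0.0777 and 0.202). The D70 rise of BOC was lost without TMG replicate 1 of D0 (2.78, adjusted p = 0.0508) and that of CDON without TMG replicate 2 of D0 (1.77, adjusted p = 0.05). The rise of GLI1 from D12 to D70 was lost without either D12 library or without TMG replicate 2 of D70 (2.94, 3.62 and 2.28, adjusted p = 0.255, 0.203 and 0.151). Without the 3 libraries highest in mesenchyme genes, a choice made after seeing the data that leaves 1 library in each D70 group and in the TMG group of D30, the control fall of PTCH1 from D12 to D70 had an adjusted p of 0.0541 and that of BOC passed (log2 fold change -2.04, adjusted p = 0.00202).

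**Figure D3:**
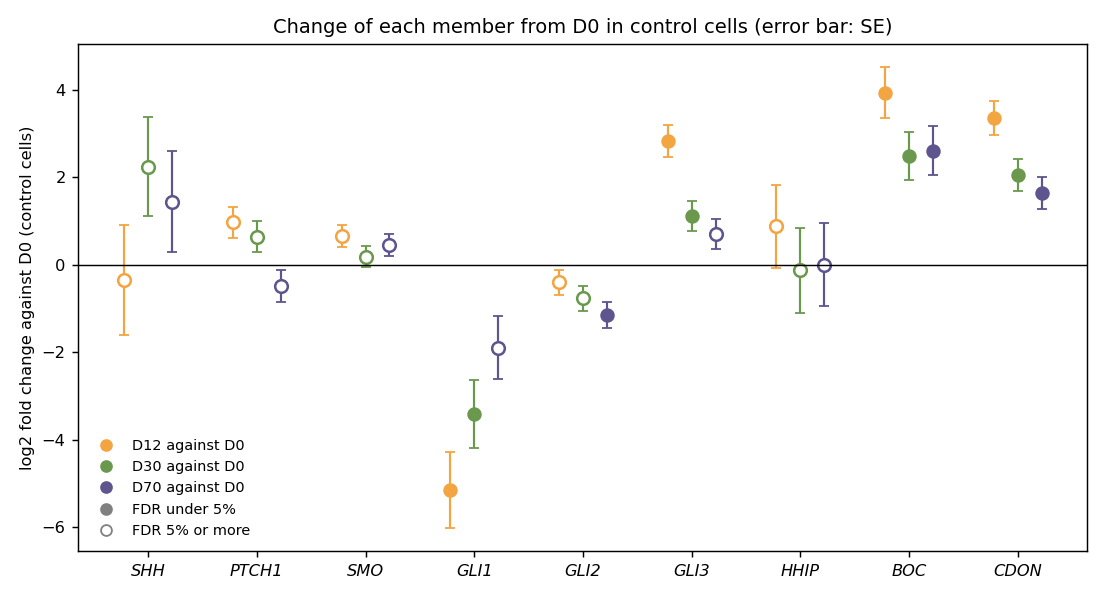
Log2 fold change of each member on D12, D30 and D70 against D0 in control cells, fitted by edgeR over 16 libraries, with error bars of 1 SE and filled points where the adjusted p is under 5%. BOC and CDON are filled and above 0 at all 3 stages, and GLI1 is lowest on D12, at -5.15.

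The genes that carry the signal inside the cell formed a further list. Of 21 transduction genes, 2 rose from D0 to D12 in control cells: SUFU, the main GLI inhibitor, from 26.5 to 50.4 CPM (log2 fold change 0.93 ± 0.22, adjusted p = 0.0171), and GSK3B, a kinase that marks GLI proteins for processing (0.54 ± 0.16, adjusted p = 0.0404). By D70, 7 of the 21 had risen against D0 and 2 had fallen, where 29.8% of all genes had passed in either direction, against 16.7% by D12. In control cells the risers included PRKAR1A, a regulatory subunit of protein kinase A, which went from 120.7 to 341.3 CPM (1.499 ± 0.23, adjusted p = 0.000952). KIF7, a kinesin of the cilium tip, fell from 42.1 to 24.6 CPM (-0.78 ± 0.21, adjusted p = 0.0196). ARRB2, an arrestin, fell too (-1.34 ± 0.34, adjusted p = 0.0146). Of 12 genes of ciliary transport, 1 had risen on D12 (6.97% of all genes rose), KIF3A (0.97 ± 0.23, adjusted p = 0.0166), and 8 on D70, against 15.0% of all genes that rose by D70. IFT88, a core intraflagellar transport protein, had 9.14 and 13.6 CPM in the control libraries of D0 and 50.1 and 23.3 CPM on D70 (1.69 ± 0.39, adjusted p = 0.00886). The list summed to 379.2 and 389.9 CPM on D0, to 703.2 and 753.4 CPM on D30, and to 1109 and 575.1 CPM on D70, where the higher sum is that of replicate 1, the library with 9812 CPM of TTR. The part of that cell type in the rise was not tested.

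Further changes in these lists were spread over the later comparisons. In control cells GPC6, a glypican, rose from 72.0 to 235.4 CPM between D0 and D70 (log2 fold change 1.71 ± 0.41, adjusted p = 0.0113), and HHAT was still higher on D70 (2.89 ± 0.48, adjusted p = 0.00156). ARRB1, an arrestin, fell from 19.4 to 4.87 CPM between D0 and D30 (-1.99 ± 0.42, adjusted p = 0.00528). SCUBE1, a relative of SCUBE2, fell from 170.5 CPM on D12 to 23.0 CPM on D70 (-2.89 ± 0.52, adjusted p = 0.00906). Between D12 and D70 SCUBE3 and KIF7 fell too (-1.65, adjusted p = 0.0382, and -1.04, adjusted p = 0.0142). PRKACB, a catalytic subunit of protein kinase A, PRKAR1A and KIF3B, a ciliary kinesin, rose over the same days (1.07, 0.95 and 0.83, adjusted p = 0.0439, 0.0238 and 0.0329). IFT20 was the 1 gene of these pathway lists that passed between D12 and D30 (1.122 ± 0.21, adjusted p = 0.0208), where 3.6% of all genes passed. From D0 to D30 the largest rises were those of GPC3 (3.09), HHAT (2.91) and DHH (2.84), with adjusted p of 0.0218, 0.00148 and 0.0147, and ARRB2 fell (-1.38, adjusted p = 0.0125). OLIG1 was lower on D70 than on D0 (-3.11, adjusted p = 0.0305).

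Several genes that Hedgehog signalling turns on in ventral tissue stayed near 0. FOXA2, the floor plate factor, had at most 0.462 CPM in any library. NKX2-1, a marker of the ventral forebrain, had at most 0.241 CPM. OLIG2, a motor neuron and oligodendrocyte progenitor factor, had at most 0.21 CPM. Only 3 of 10 genes of this list passed the filter on low counts. FOXF2, a gene of mesenchyme next to Hedgehog sources, was the exception in the libraries high in mesenchyme genes, with 16.6 CPM in TMG replicate 2 of D30 and 2.90 and 4.90 CPM in the replicate 2 libraries of D70, against at most 0.874 CPM in the other 13. The list summed to 22.2 CPM in TMG replicate 2 of D30 and to between 1.79 and 4.12 CPM in the other D30 libraries. The part of mesenchyme gene expression in that sum was not tested. OLIG1, the neighbour and relative of OLIG2, fell in control cells from a mean of 4.96 CPM on D0 to 0.0765 CPM on D12 (log2 fold change -5.86 ± 1.14, adjusted p = 0.00798). Over a list of 8 dorsal neural genes (PAX3, PAX7, MSX1, MSX2, LMX1A, GDF7, ZIC1 and ZIC2) the sum was between 322.4 and 380.4 CPM on D0 and between 1359 and 2078 CPM on D12, and all 8 had at least 1 CPM in each D12 library.

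The second comparison asked how raised O-GlcNAc bears on these genes. At no stage did a member pass for TMG against control by edgeR, and neither did any of the 24249 genes (0% at each stage). At an unadjusted p under 0.05 there were 0 of 9 members on D0, where 1.26% of all genes were, 0 on D12 (2.48%), 1 on D30 (12%), GLI1, and 1 on D70 (5.49%), HHIP. By DESeq2 on the same 16 libraries, 0, 0, 0 and 1 members passed, the last being HHIP, against 0.0116%, 0.0525%, 3.22% and 0.214% of the genes it tested. The members had median differences of 0.2, -0.15, 0.49 and 0.38 (log2) at the 4 stages in order, and the median over all genes lay between -0.010 and 0.011. In simulated counts for D30 on 23323 genes, edgeR recovered 91 of 200 genes changed 4-fold. These counts gave each gene the same spread and starting level in all 16 libraries. Only genes with a mean above 1 CPM were changed. They do not show what would be recovered where replicates of a stage differ more, or at lower levels.

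HHIP differed most. On D0 the TMG libraries had 3.43 and 4.28 CPM, which overlap the control values of 4.39 and 3.99 CPM. On D12 they had 16.2 and 25.4 CPM against 5.16 and 10.3 CPM, and on D30 12.6 and 9.37 CPM against 2.91 and 4.67 CPM. On D70 they had 181.5 and 7.86 CPM, 2297 and 85 counts, against 3.41 and 4.99 CPM, 53 and 62 counts. Both TMG libraries thus lay above both control libraries on D12, D30 and D70, as held for 291 of 24249 genes (1.2%) and for 1 of the 9 members.

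The fitted log2 fold changes of HHIP for TMG against control were 1.43 ± 0.94 on D12 (adjusted p = 1 by edgeR), 1.52 ± 0.97 on D30 (adjusted p = 0.577) and 4.50 ± 1.06 on D70 (adjusted p = 0.818). DESeq2 gave 4.52 ± 0.89 on D70 with an adjusted p of 0.000842. The size on D70 rested on TMG replicate 1, without which it was 0.90 with an adjusted p of 0.333. Without TMG replicate 2 it was 5.44 with an adjusted p of 0.0042, in a fit that leaves TMG replicate 1 alone in its group and takes its spread from the other groups, and in which 3 of 25864 genes passed. Over the libraries left out in turn the adjusted p ranged from 0.0042 to 0.595. TTR was at 2913 CPM in TMG replicate 1 of D70, and at 9812 CPM in control replicate 1, where HHIP was at 3.41 CPM. PAX3, a dorsal neural factor, was also higher in both TMG libraries at the 3 later stages, with 361.5 and 374.9 CPM against 217.1 and 299.9 CPM in control on D12 and 175.6 and 159.5 CPM against 48.4 and 79.6 CPM on D30. Its D70 values were 149.6 and 11.5 CPM against 5.85 and 9.90 CPM, so it too was highest in TMG replicate 1. The list of 8 dorsal neural genes that holds PAX3 summed to 834.2 and 116.2 CPM in the TMG libraries of D70 and to 558.1 and 192.2 CPM in control, and ranged from 1548 to 2078 CPM against 1359 to 1718 CPM on D12 and from 1262 to 1308 CPM against 761.4 to 1151 CPM on D30. In each of these libraries 0 of the 8 were at 0. The median log2 fold change of this list for TMG against control was 0.326 on D12, 0.225 on D30 and -0.247 on D70. On D70 the list thus did not go with PAX3. The part of these cell type markers in the values of HHIP was not tested. In TMG cells HHIP rose from D0 to D70 (log2 fold change 4.61 ± 1.07, adjusted p = 0.00955), which fell to 1.01 without TMG replicate 1 of D70 (adjusted p = 0.154) and was lost without either D0 library (adjusted p = 0.0859 and 0.0756). The TMG effect on D70 minus that on D30 was 2.98 ± 1.36 (adjusted p = 1), and minus that on D0 it was 4.61 ± 1.395 (adjusted p = 1), so no difference between stages passed. Unadjusted by edgeR, p was 0.00718 for D70 minus D0 and 0.0435 for D70 minus D12. In these 2 comparisons 532 and 584 of 24249 genes had an unadjusted p under 0.05. Both differences include TMG replicate 1 of D70.

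HHIP-AS1, a non-coding gene on the opposite strand at the same locus, had 1 to 46 counts and its 3 highest values in the same 3 libraries as HHIP. It had 0.442 and 0.986 CPM in control and 1.56 and 2.30 CPM in TMG cells on D12, and 3.63 and 0.832 CPM in the TMG libraries of D70 against 0.579 and 0.885 CPM in control. The annotation gives both genes 813 shared exon bases, 6.8% of the exon bases of HHIP, and the sources used here do not say whether reads were counted by strand, so reads from the shared bases cannot be told apart. The same holds for other members that share exon bases with a gene on the opposite strand. BOC shares 530 with CFAP44 (5.1% of its exon bases), PTCH1 711 with a lncRNA (4.1%), SMO 129 with a lncRNA (2.7%) and CDON 2831 with VSIG10L2 (14.2%). CFAP44 had 3053 counts in control replicate 1 of D70, where BOC had 1671, and 498 in control replicate 2, where BOC had 3113.

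**Figure D4:**
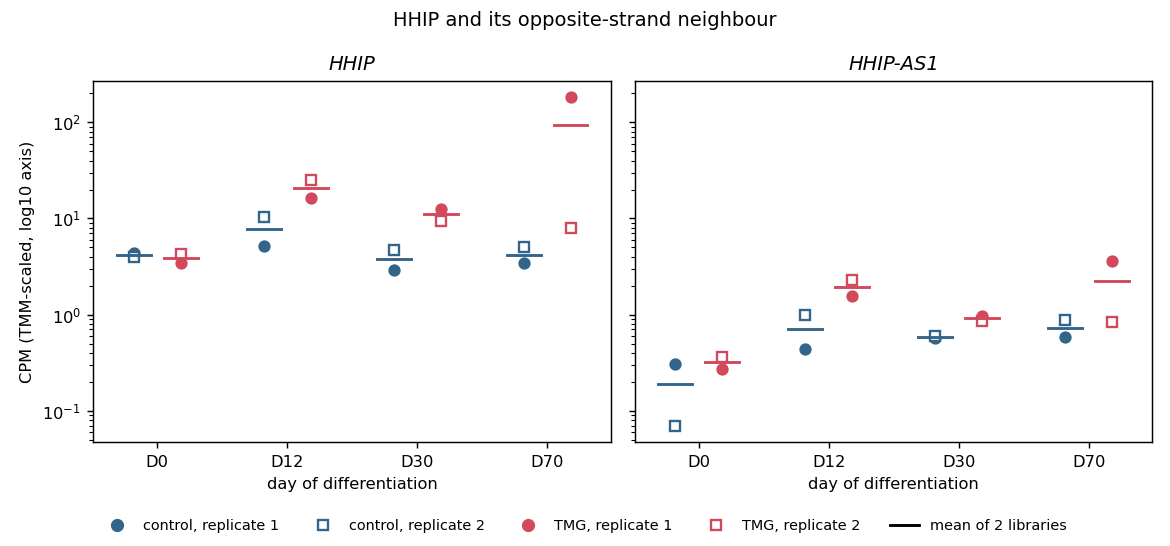
CPM of HHIP (left) and HHIP-AS1 (right) on a log10 axis in each of the 16 libraries, with control in blue, TMG in red and a bar at the mean of 2 libraries. For HHIP both red points lie above both blue points on D12, D30 and D70, and 1 TMG library of D70 stands at 181.5 CPM with the other at 7.86 CPM.

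For GLI1, BOC, GLI2 and GLI3 the highest value on D30 was that of 1 library, TMG replicate 2, and the same was true of SMO. GLI1 had 0.874 and 4.35 CPM in the TMG libraries of D30 against 0.47 and 1.05 CPM in control (log2 fold change 1.72 ± 0.77, adjusted p = 0.409). BOC had 166.3 and 468.1 CPM against 147.7 and 179.8 CPM (0.95 ± 0.53, adjusted p = 0.503), and GLI2 had 39.8 and 83.7 CPM against 34.96 and 52.6 CPM (0.49 ± 0.29, adjusted p = 0.538). GLI3 had 215.8 and 283.3 CPM against 207.5 and 224.6 CPM. In each of these 4 genes the TMG and control ranges overlap. TMG replicate 2 also held 29820 CPM of mesenchyme genes against 4562 to 5718 CPM in the other D30 libraries. Without it the log2 fold changes were 0.15 for GLI1, 0.02 for BOC, -0.14 for GLI2 and -0.003 for GLI3. Leaving out the library with the highest value of each gene lowers these differences whatever set that library apart. The part of mesenchyme gene expression in these values was not tested.

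The same held in part on D70, where both replicate 2 libraries were high in mesenchyme genes. BOC had 107.4 CPM in control replicate 1 and 148.7 CPM in TMG replicate 1, and 250.5 and 307.7 CPM in the replicate 2 libraries. GLI3 had 135.6 and 136.5 CPM in the replicate 1 libraries and 188.6 and 301.5 CPM in the others. GLI1 had 2.19 and 1.98 CPM in the replicate 1 libraries and 2.33 and 5.83 CPM in the others. CDON, PTCH1 and SMO did not share this order: PTCH1 and SMO were higher in replicate 1 of both arms, and CDON was higher in replicate 2 in control cells only, with 247.0 and 242.8 CPM in TMG cells.

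CDON was higher in both TMG libraries of D30, with 468.5 and 362.0 CPM against 230.5 and 300.9 CPM in control (log2 fold change 0.64 ± 0.36, adjusted p = 0.506). SMO was also higher in both, at 136.6 and 164.5 CPM against 112.7 and 124.8 CPM (0.34 ± 0.25, adjusted p = 0.632), and its difference was 0.20 without TMG replicate 2, the library high in mesenchyme genes. On D30, 3 of 9 members had TMG libraries wholly above control (SMO, HHIP and CDON), where 23.1% of all genes did. On D0 both PTCH1 and SMO did, against 19.7% of all genes, with 76.2 and 73.6 CPM of PTCH1 against 44.7 and 63.4 CPM (0.47 ± 0.36, adjusted p = 1). On D12 only HHIP did (17.8%), while GLI2 and BOC lay wholly below control (16.5%). On D70 GLI2 and HHIP did (9.77%), with 47.4 and 50.7 CPM of GLI2 against 32.1 and 35.5 CPM (0.54 ± 0.29, adjusted p = 0.909). GLI2 was thus on opposite sides on D12 and D70, and the difference between its effects was 0.68 ± 0.41 (adjusted p = 1).

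PTCH1 was lower in TMG cells on D12, with 83.1 and 55.6 CPM against 139.9 and 71.9 CPM, ranges that overlap (log2 fold change -0.61 ± 0.36, adjusted p = 1). Its effect on D12 minus that on D0 was -1.08 ± 0.50 (adjusted p = 1). GLI3 had log2 fold changes for TMG against control of 0.30, -0.16, 0.21 and 0.43 on D0, D12, D30 and D70. Their standard errors, from a spread shared by all groups, were 0.35 at each stage, and adjusted p-values lay between 0.872 and 1. The SD of GLI3 in control and TMG was 34.1 and 2.25 CPM on D0, and 37.5 and 116.7 CPM on D70. SHH had log2 fold changes of 0.38, -0.09, -0.21 and -0.64 with standard errors between 1.03 and 1.27, on at most 22 counts in a library. How large a change in SHH could be detected was not tested. Of the 3 differences between consecutive stages, none passed for any member or for any gene by edgeR (adjusted p = 1 for all 9 members, with 0 members at an unadjusted p under 0.05, where 1.07%, 3.41% and 4.03% of all genes were), and DESeq2 called 0 members, against 0.00695%, 0.0962% and 0.114% of the genes it tested.

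**Figure D5:**
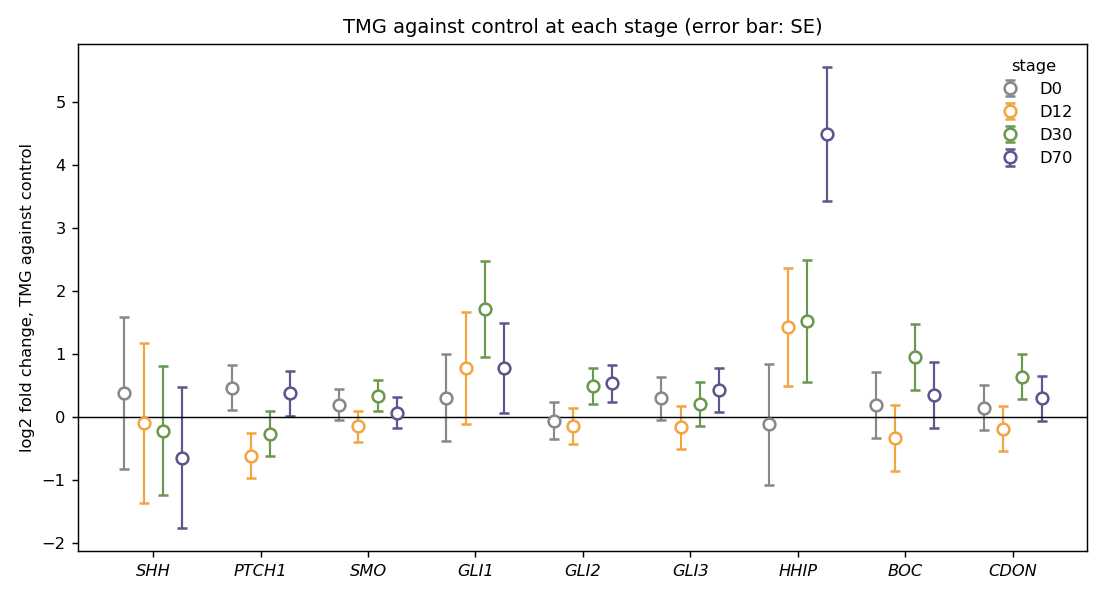
Log2 fold change of each member for TMG against control on D0, D12, D30 and D70, fitted by edgeR over 16 libraries, with error bars of 1 SE. No point passes the false discovery rate of 5%, and HHIP on D70, at 4.50, lies farthest from 0.

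Among the other pathway lists no gene passed for TMG against control at any stage. At an unadjusted p under 0.05 on D30 there were 5 higher and 1 lower of 21 transduction genes, where 7.1% and 4.89% of all genes were. GAS1 had 87.2 and 267.7 CPM in the TMG libraries of D30 against 40.2 and 49.8 CPM in control, with the higher value again in the library high in mesenchyme genes. GPC3 lay the other way, with 454.0 and 56.0 CPM against 1455 and 648.8 CPM on D30 (log2 fold change -2.04 ± 0.83, adjusted p = 0.372) and 396.4 and 166.7 CPM against 974.7 and 872.4 CPM on D12 (-1.71 ± 0.83, adjusted p = 1). The receptor list had 1 gene higher and 1 lower of 6 at an unadjusted p under 0.05 on D30, with a median of -0.37.

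The genes most like 4 of the members over the 16 libraries were found by the root mean square difference of log2 CPM (prior count 2), each gene centred on its own mean, among 20546 genes with a symbol. For GLI1 they were PTCHD1, RIMS4, LDB2, STEAP2 and BRINP1, with differences from 0.595 to 0.738, where the median over all genes was 1.86. For HHIP they were HHIP-AS1, CHRM3, DRD5, C1orf105 and BCHE, from 0.796 to 0.917 against a median of 1.57. For PTCH1 they were NFRKB, BCAS2P2, BRAT1, SOCS4 and LUC7L, from 0.256 to 0.285 against 0.792. For SHH they were SLC44A5, PRUNE2, SYT13, IL1A and TEX9, from 0.542 to 0.588 against 1.22, on the few counts given above. A gene that did not change over the libraries would differ by 1.77 from GLI1, 1.44 from HHIP, 0.505 from PTCH1 and 1.05 from SHH. Each of these is below the median given. The HHIP values include 181.5 CPM in TMG replicate 1 of D70, against at most 25.4 CPM in any other library.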

How the data were processed

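The authors extracted total RNA, depleted rRNA, prepared libraries with the NEBNext Ultra II kit, ran bowtie2 against hg19 and RSEM v1.2.12, and the deposited values are its estimated counts for Ensembl genes of GRCh37.p13, as whole numbers and not normalized. Whether counting used strand is not given in the sources used here. Libraries were grouped by title. For 8 libraries the treatment characteristic goes against the title. The replicates are named biological, with 2 cultures per group. In the fits over 16 libraries, p-values rest on a spread between replicates that is pooled over all 8 groups for each gene. Estimated by stage, the common coefficient of variation between replicates was largest for D70, at 0.616, and smallest for D0, at 0.189. It was 0.295 for D30 and 0.238 for D12. A pooled spread can therefore be too large for TMG tests of the early stages and too small for those of D70.

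Counts were tested with edgeR 4.0.16 in R 4.3.3: filterByExpr (minimum count 10, minimum total count 15), TMM, robust quasi-likelihood fit of 8 group means over 16 libraries (8 residual degrees of freedom), Benjamini-Hochberg adjustment over 24249 genes within each comparison, false discovery rate 5%. Standard errors are the log2 fold change over the root of F. Alternatives were RLE factors, no filter, DESeq2 1.42.0, the replicate number as a block, the 4 libraries of a stage alone and each library left out in turn. Gene lengths and overlaps came from GENCODE on GRCh37. The members and lists were chosen with earlier results of these data known. The text names all 9 members, preset pathway genes and, among list genes past the threshold, up to 3 of the largest changes each way per comparison printed, with GSK3B, KIF3A, PRKAR1A on D70, PAX3, FOXF2, GPC3 in TMG cells and HHIP-AS1 chosen after their values were seen. For the TMG arm the list comparisons between stages are not printed, and some preset genes are not reported here. In 128 of 129 list genes a match was found. Replicates differed in their counts by far more than sampling noise (chi-square per degree of freedom from 29.1 to 181.2), so none was counted as 1 sample. The simulated counts gave each gene the same spread in all 16 libraries, unlike the data. On simulated counts for D0 against D12, edgeR recovered 88 of 200 genes changed 4-fold and called 5 unchanged ones. DESeq2 recovered 138 of 200 there and called 43 unchanged ones, a limit on the calls that DESeq2 alone made.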

Additional observations from a re-analysis of the deposited data

How the results depend on the processing

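The count of members past the threshold for TMG against control on D70 was 0 and became 1, HHIP, with DESeq2 on 16 libraries, and 1 without the 3 libraries highest in mesenchyme genes, where its log2 fold change was 5.74 (adjusted p = 0.0234). That fit sets TMG replicate 1 of D70, with 181.5 CPM, against 1 control library and takes the spread from other groups, and 12 of 25404 genes passed in it. With each library left out in turn that count ran from 0 to 1. The counts for D0, D12 and D30 and for differences between consecutive stages were 0 under every alternative run, with each library left out too. Over all genes the same fits called 0 to 6 for TMG on D0 and 0 to 123 on D12, the most with DESeq2 on the 4 libraries of the stage. For TMG on D30 they called 0 in the fit reported, 233 with the replicate block, 595 and 511 with DESeq2 on 16 and on 4 libraries, 21 without the filter, 33 without those 3 libraries and 0 to 175 with a library left out. On D70 they called 0 to 799 genes with a library left out, the most without TMG replicate 1, and for the D70 minus D30 difference 0 to 362, again the most without it. The members called between stages ran from 4 to 6 in both arms with a library left out.

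Without those 3 libraries (chosen after seeing the data, and leaving 1 library in each D70 group and in the TMG group of D30, assumed to vary like the rest), the fitted differences for TMG against control that changed sign were SHH 0.252, GLI2 -0.178, GLI3 -0.039 and BOC -0.015 on D30, with PTCH1 at 0.000, and GLI1 -0.141 on D70. None of these had passed. With each library left out in turn, log2 differences for TMG against control on D0 ran from -0.126 to 0.032 for GLI2, from -0.284 to 0.048 for HHIP, from -0.127 to 0.637 for BOC and from -0.002 to 0.366 for CDON. On D12 they ran from -1.604 to 0.573 for SHH, from -0.395 to 0.156 for SMO and from -0.409 to 0.064 for CDON. On D30 they ran from -0.948 to 0.274 for SHH, from -0.638 to 0.036 for PTCH1, from -0.14 to 0.929 for GLI2 and from -0.003 to 0.388 for GLI3. On D70 they ran from -1.581 to 5.831 for SHH, from -0.238 to 0.36 for SMO, from -0.189 to 1.356 for GLI1, from -0.244 to 0.888 for GLI3, from -0.262 to 1.105 for BOC and from -0.208 to 1.093 for CDON. For HHIP in TMG cells the change ran from -1.41 to 3.13 between D12 and D70 and from -0.493 to 4.047 between D30 and D70, and the D70 minus D30 difference of TMG effects from -0.62 to 3.925. The cause of these sign changes was not tested.

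The labels do not tie equal replicate numbers to a shared culture or day, and with 2 replicates a group the numbers were not taken to pair. The replicate differences of both arms correlated at 0.0453, 0.367, 0.223 and 0.607 at the 4 stages. With the replicate number as a block the members called for TMG stayed 0 at each stage, where 0, 0, 233 and 1 of 24249 genes were called in stage order, HHIP on D70 was 3.29 (adjusted p = 0.378), and GLI2 passed from D0 to D30 in control (-0.794, adjusted p = 0.0411). Of the other values of single members, 415 kept direction and call under the alternatives that keep all libraries or leave out those 3, 22 passed only there, 2 passed only in the fit reported and 6 changed sign. SHH had at most 22 counts in a library, and the change that such counts could detect was not tested.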
